A study of Homo sapiens with 12 samples.

Results

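The subject here is the response of A549 cells, a long-established line from a human lung adenocarcinoma, to 48 hours without attachment. The comparison took the 3 libraries of floating control A549 cells against the 3 libraries of attached control A549 cells, 6 of the 12 libraries of the study, and covered all genes. The study asked how GFI1, a zinc-finger transcription factor of blood cells, changes lung cancer cells, and the other 6 libraries came from A549 cells made to express it, 3 attached and 3 floating. Cells of both genotypes were grown in RPMI1640 with 10% FBS, on culture-treated plates when attached and on ultra-low attachment plates when forced into suspension. RNA was taken from cells sorted for a GFP marker, and the sources used here name no vector for the control cells of this experiment. A549 is 1 line, and nothing states that replicates 1 to 3 of a group came from separate cultures, so the spread between them may be technical.

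Expression is given per library as CPM, the read count of a gene scaled to a common library size. The 6 control libraries held 17445472 to 19493795 counts and 26273 to 27142 detected genes, and 6.69% to 7.11% of their counts were mitochondrial. GFI1 itself had 4 to 12 counts in each control library, against 5154 or more in each GFI1 library, so every library matched its genotype label. No introduced gene checks the attached or floating part of the label. The first principal component of the 6 control libraries carried 56.5% of the variance, with attached libraries from -33.6 to -31.2 and floating libraries from 31.6 to 32.9. Among the GFI1 libraries, floating replicates 2 and 3 differed most, with a chi-square per gene of 11.8 against 2.16 to 3.75 between control replicates. The count of differences between genotypes, and the differences of the genes described with them, are therefore also given without each.

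The cell type label was checked against markers. The keratins KRT8, KRT18 and KRT7 were abundant in every control library, with at least 21551 counts each, whereas the alveolar genes SFTPB, SFTPC and NKX2-1 had at most 9 counts and SCGB3A1 had 0. Other epithelial markers of the list lay between. CDH1 had 1376 to 2186 counts and MUC1 115 to 485, but EPCAM had only 23 to 45, NAPSA 32 to 63 and KRT19 13 to 38. The 18 markers of other cell types covered leukocytes, endothelium, fibroblasts, platelets and red blood cells. They summed to 18.0 to 20.9 CPM in attached and 21.1 to 26.2 CPM in floating control libraries. PTPRC, CD3E, KDR, DCN and LUM had at most 1 count in any control library. Most of the sum came from CD14 (79 to 229 counts) and COL1A1 (147 to 256 counts), and the part of these markers in any result was not tested.

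Epithelial cells read attachment through integrins, which link matrix to actin at focal adhesions and pass signals to kinases such as FAK, SRC, ERK and AKT. When contact is lost, normal epithelial cells undergo anoikis, a form of apoptosis, and many cancer cells withstand it. The study counts A549 among its anoikis-susceptible cells and reports less death of suspended cells when GFI1 was overexpressed. The share of dying cells in the floating libraries is not given by the counts. Cell spreading and actin tension also keep the coactivators YAP and TAZ in the nucleus, where they act with TEAD factors. Cells in suspension often gather into clusters, and oxygen-regulated transcription in any culture runs through the hypoxia-inducible factors (HIFs).

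Suspension changed 7152 of 17829 genes tested, or 40.1%, at a Benjamini-Hochberg adjusted p of 0.05 or less in the quasi-likelihood test of edgeR. Of these, 3489 (19.6% of genes tested) were higher and 3663 (20.5%) were lower in floating cells. Most changes were small. The median size of a called change was 0.38 on the log2 scale, and 64.1% of called changes were under 0.5. A change of 2-fold or more was called for 660 genes that were higher (3.7% of genes tested) and 249 that were lower (1.4%), a change of 4-fold or more for 109 and 36, and a change of 8-fold or more for 32 and 13. Among 13761 protein-coding genes, 511 were at least 2-fold higher and 175 at least 2-fold lower, and among 2584 long noncoding RNA genes the numbers were 111 and 55. The median log2 fold change of all genes tested was 0.01. These are levels relative to all mRNA, and in such bulk samples fewer cells with a transcript and less transcript per cell cannot be told apart.

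**Figure D1:**
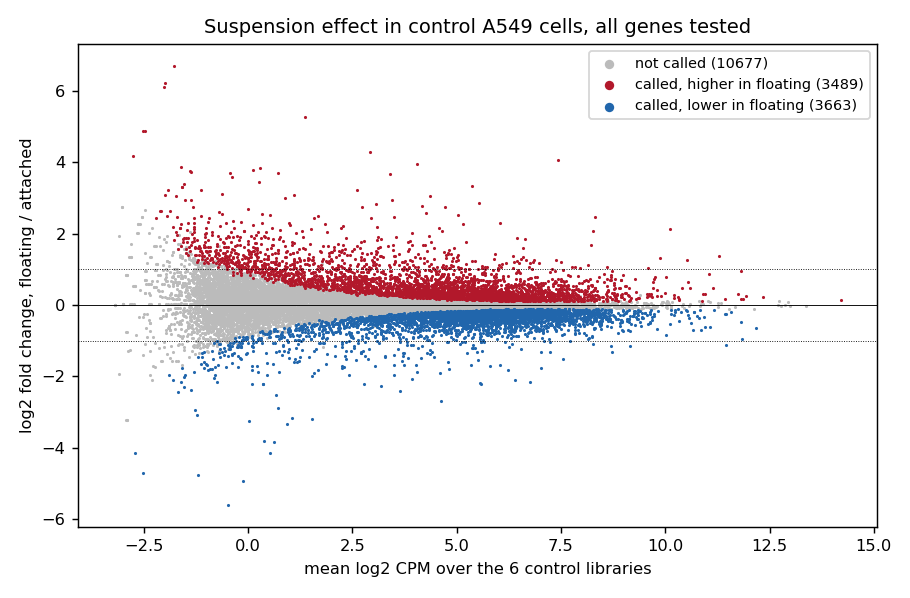
Each point is 1 of the 17829 genes tested, with its mean log2 CPM over the 6 control libraries on the x axis and its log2 fold change (floating over attached) on the y axis, and dotted lines at 2-fold. Called genes that were higher (3489) and lower (3663) in floating cells spread over the whole range of expression, and the largest fold changes stand at low expression.

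CPM ranges of the 3 floating and 3 attached libraries did not overlap for 49.9% of genes tested, higher in floating cells for 24.7% and lower for 25.2%. Among protein-coding genes without overlap whose log2 CPM averaged at least 1, the 15 highest fold changes began with CA9, PPFIA4 and NDRG1, and the 15 lowest with ANKRD1, PEAR1 and ANXA3. These genes were picked by the size of their change, so their values describe that choice. The values by library show how far apart the groups lay. In the lists below, ± after a log2 fold change is a standard error worked back from the statistic of the quasi-likelihood test. Its spread was estimated over all 12 libraries, so it is not the spread of the control libraries alone. LOX, for example, ran from 9.60 to 55.0 CPM in floating GFI1 libraries. List members beyond those fixed by rule were chosen after their values were seen. The count of each list is to be read against the 19.6% higher and 20.5% lower of all genes tested.

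**Figure D2:**
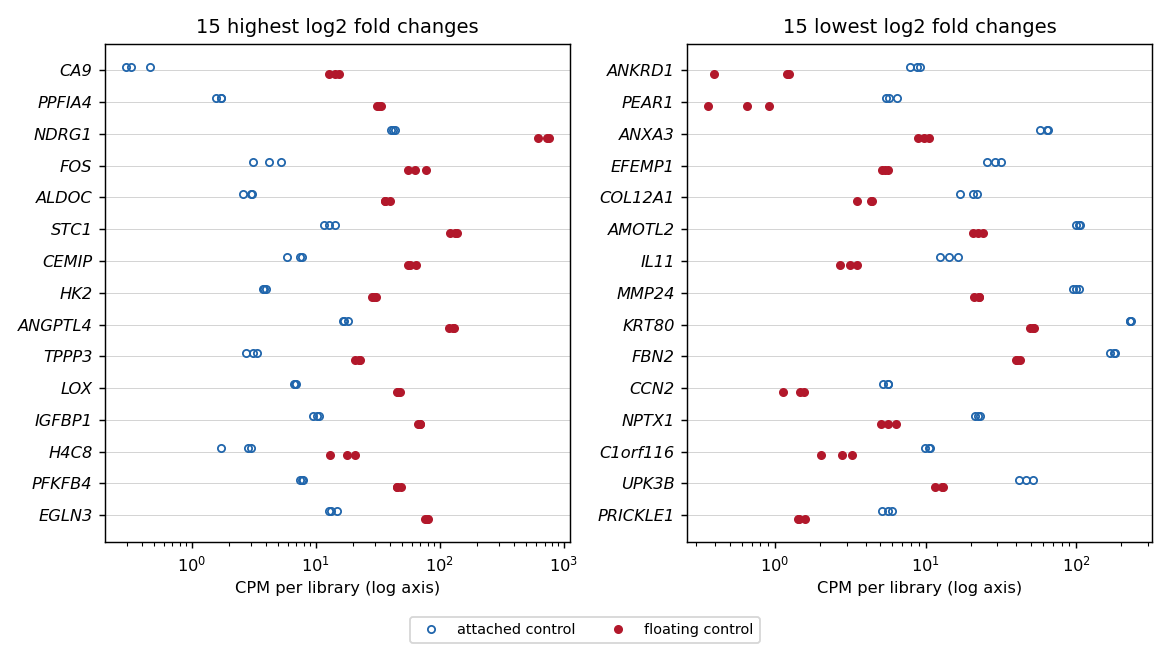
CPM of each control library on a log axis for the 15 genes with the highest and the 15 with the lowest log2 fold change by the naming rule, with open blue circles for attached and filled red circles for floating libraries. For each gene the 3 floating libraries lie clear of the 3 attached libraries, by construction of the rule.

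By the naming rule the 3 highest fold changes belonged to CA9, PPFIA4 and NDRG1, all of the hypoxia list. CA9 encodes carbonic anhydrase IX, a surface enzyme that helps cells export acid and a common marker of hypoxia (GRCh38 ENSG00000107159, chr9:35673928-35681159, plus strand). CA9 was at 0.298, 0.326 and 0.459 CPM in the attached libraries and 12.9, 15.4 and 14.4 CPM in the floating libraries. It was thus barely expressed when attached and rose 38.8-fold with suspension (log2 change 5.28 ± 0.37, edgeR adjusted p 2.53e-11). NDRG1, a stress-responsive gene of epithelial differentiation (ENSG00000104419, chr8:133237175-133302022, minus strand), went from 41.7, 40.8 and 43.96 CPM attached to 763, 733 and 624 CPM floating and rose 16.8-fold (log2 fold change 4.07 ± 0.28). PPFIA4, a liprin-alpha scaffold protein, went from 1.73, 1.57 and 1.72 CPM attached to 31.5, 32.3 and 33.8 CPM floating (log2 fold change 4.28 ± 0.15). In each of these genes every floating library lay far above every attached library.

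Other HIF targets rose less steeply. The secreted lipase inhibitor ANGPTL4 was at 18.2, 17.1 and 16.6 CPM in the attached libraries and 127, 130.1 and 118 CPM in the floating libraries. EGLN3, an oxygen-sensing prolyl hydroxylase that marks HIF subunits for degradation, was at 14.9, 13.3 and 12.8 CPM in the attached libraries and 80.7, 78.8 and 76.7 CPM in the floating libraries. The mitophagy receptor BNIP3L went from 54.2, 56.3 and 56.5 CPM attached to 159, 176 and 171 CPM floating, and its relative BNIP3 from 80.6, 67.7 and 74.3 CPM attached to 169, 175 and 174 CPM floating. VEGFA, the main growth factor of blood vessels, went from 55.98, 53.1 and 55.5 CPM attached to 136, 134 and 114 CPM floating and was 2.33-fold higher. The groups did not overlap in any of these 5 genes. The log2 fold changes were 2.86 ± 0.16 for ANGPTL4, 2.53 ± 0.16 for EGLN3, 1.60 ± 0.08 for BNIP3L, 1.22 ± 0.06 for BNIP3 and 1.22 ± 0.13 for VEGFA. ADM, which encodes the vasodilator peptide adrenomedullin, moved least among the core members, from 42.9, 42.2 and 39.8 CPM attached to 62.9, 57.6 and 46.9 CPM floating (0.42 ± 0.13), and its call was lost with DESeq2, with robust empirical Bayes and without floating control replicate 1 (log2 fold change 0.32).

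Of 39 genes of the hypoxia list, 37 were tested, 32 rose, none fell and 20 rose 2-fold or more, with a median log2 fold change of 1.01. Among those that did not pass were BHLHE41 (0.67), NDUFA4L2 (0.44), PIAS2 (0.0037) and KIF3A (-0.10). Among the mRNAs of HIF subunits, HIF1A moved the other way. It went from 637, 655 and 635 CPM attached to 488, 512 and 474 CPM floating (-0.39 ± 0.04, edgeR adjusted p 4.82e-08), while ARNT, its partner, was at 39.96, 40.6 and 42.6 CPM in the attached libraries and 44.6, 39.1 and 42.2 CPM in the floating libraries and was not called (0.03 ± 0.06). EPAS1, which encodes HIF-2 alpha, was -0.20 ± 0.06, and VHL, the ubiquitin ligase subunit that removes HIFs, was -0.15 ± 0.05. The EPAS1 call was lost with DESeq2, robust empirical Bayes and without 2 single control libraries (attached replicate 3 with -0.19 and floating replicate 3 with -0.16), and the VHL call without attached control replicate 1 (-0.11) or floating control replicate 2 (-0.12). Of 12 HIF subunits and regulators, 6 fell and 1 rose, CITED2, which competes with HIF-1 alpha for its coactivator and went from 10.9, 13.5 and 12.6 CPM attached to 58.7, 51.8 and 45.1 CPM floating (2.07 ± 0.13).

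Promoter sequences of these genes are shown because HIFs bind a short element, the hypoxia response element, whose core is ACGTG or GCGTG on either strand. The windows were read from RefSeq promoters (GRCh38.p14, 250 bases before to 50 after the start of each gene), 5′ to 3′ on the strand of the gene, and capitals mark the match nearest to the start site.
CA9 (chr9:35673900-35673925, plus strand): gtttccaatgCACGTacagcccgtac
PPFIA4 (chr1:203026397-203026422, plus strand): ggggcgggagGCGTGgcctcggtcgc
ALDOC (chr17:28576908-28576933, minus strand): ccggaggagtCACGTagctctgcgac
HK2 (chr2:74834069-74834094, plus strand): tgggcgtgcgCACGTcactgatccgg
PFKFB4 (chr3:48556954-48556979, minus strand): agttgggcatGCGTGgtcggaggccg
BNIP3 (chr10:131982012-131982037, minus strand): cgcccctgcgCACGCgcaggccccaa
The match of CA9 ends 13 bases before the annotated start and that of ALDOC 23 bases before it. A core was found in 24 of the 29 hypoxia-list promoters in the table, or 82.8%, against 62.2% of 12045 promoters of genes tested. Among promoters of all genes that rose 2-fold or more the share was 51.5%. The core is short and lies within the E-box CACGTG, so a match is a description of the letters. The 250 bases before the start of EGLN3 and PDK1 held no match. Here and below, matches of single genes were sought in those 250 bases only, whereas the shares count the whole window.

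Among glycolytic genes, some isoforms rose strongly and other enzymes were not called. HK2, the hexokinase that traps glucose in the cell, was at 3.81, 3.96 and 3.79 CPM in the attached libraries and 29.8, 28.6 and 30.6 CPM in the floating libraries (2.94 ± 0.24, edgeR adjusted p 3.52e-10). ALDOC, an aldolase isoform, went from 3.04, 3.095 and 2.58 CPM attached to 39.5, 36.4 and 36.3 CPM floating (3.68 ± 0.17). PFKFB4, which sets the level of an activator of phosphofructokinase, went from 7.74, 7.98 and 7.46 CPM attached to 44.9, 49.1 and 45.7 CPM floating. PDK1, which keeps pyruvate out of mitochondria, went from 11.02, 11.4 and 8.32 CPM attached to 33.4, 33.2 and 32.6 CPM floating (1.69 ± 0.12). The abundant enzymes moved less, and LDHA, which makes lactate, went from 1822, 1795 and 1725 CPM attached to 2241, 2246 and 2194 CPM floating (0.32 ± 0.06). The glucose transporter SLC2A1 (GLUT1) went from 192, 198 and 199.9 CPM attached to 312, 297 and 297 CPM floating (0.62 ± 0.08). PFKP, the platelet-type phosphofructokinase, fell from 516, 527 and 523 CPM attached to 399, 400.01 and 394 CPM floating (-0.39 ± 0.06). Of 25 genes of glucose and lactate transport and glycolysis, all tested, 16 rose and 1 fell, with a median of 0.26. ENO1 (-0.05), TPI1 (0.02) and PGAM1 (-0.02) were among those not called.

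**Figure D3:**
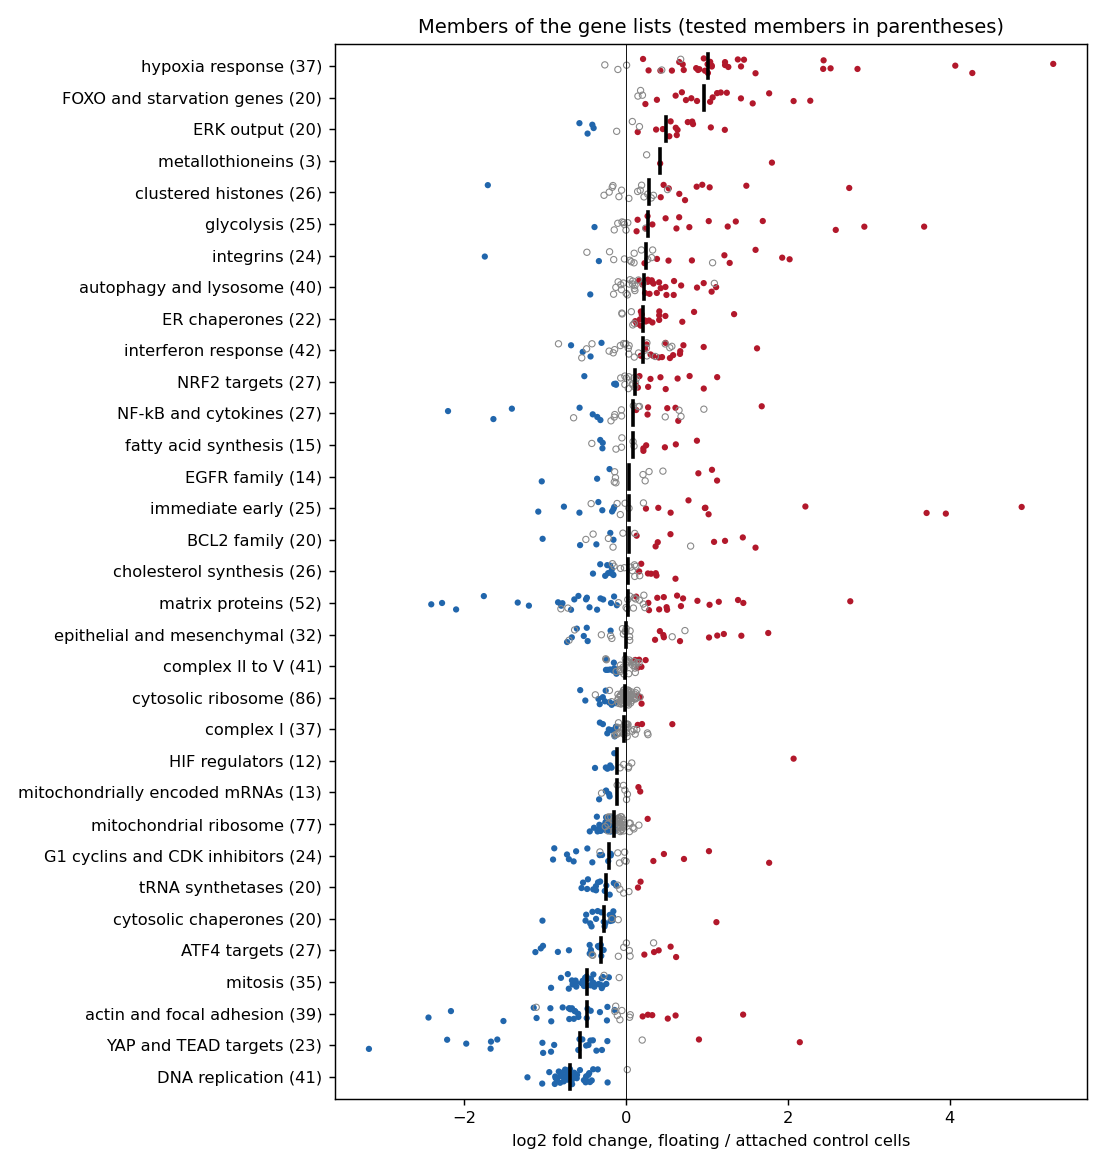
Log2 fold change (floating over attached control cells, x axis) of every tested member of 33 gene lists and families, ordered by median, with filled points for called genes (red higher, blue lower), open points for the rest and a black bar for the median. The hypoxia list stands at the top (median 1.01) and DNA replication at the bottom (median -0.70).

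Immediate early genes, which answer signals within minutes without new protein synthesis, were divided. FOS, a subunit of the AP-1 transcription factor (ENSG00000170345, chr14:75278826-75282230, plus strand), was at 3.16, 5.27 and 4.19 CPM in the attached libraries and 63.1, 77.96 and 55.6 CPM in the floating libraries, a rise of 15.5-fold (3.95 ± 0.14, edgeR adjusted p 8.46e-17). FOSB went from 0.298, 0.489 and 0.402 CPM attached to 5.22, 6.26 and 4.48 CPM floating (3.71 ± 0.27) and EGR1 from 1.67, 1.96 and 3.099 CPM attached to 11.9, 11.9 and 7.59 CPM floating (2.21 ± 0.22). JUN, another AP-1 subunit, fell from 51.6, 46.5 and 51.02 CPM attached to 26.3, 22.5 and 21.4 CPM floating (-1.09 ± 0.15), and FOSL2, a member of the FOS family, fell from 281, 304 and 309 CPM attached to 177, 173 and 174 CPM floating (-0.77 ± 0.07). ATF3 was at 4.82, 6.35 and 4.76 CPM in the attached libraries and 6.88, 5.18 and 6.46 CPM in the floating libraries, and its groups overlapped (0.21 ± 0.13). Of 27 immediate early genes, 25 were tested, 11 rose and 8 fell, with a median of 0.03. EGR2 had no count in any attached library and at most 5 in a floating library, which gives at least 1.13-fold higher against 3 counts per library. EGR1 is driven through serum response factor at CArG boxes, and its promoter held 2 of them, of which the nearer is shown in capitals.
EGR1 (chr5:138465388-138465413, plus strand): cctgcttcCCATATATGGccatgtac
A CArG box was found in 2 of 20 immediate early promoters and in 1.01% of promoters of genes tested. The 250 bases before the start of FOS and FOSB held none, and sequence beyond the window was not searched.

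Genes that report ERK activity rose on balance. DUSP6, a phosphatase that switches ERK off, was at 8.04, 6.73 and 7.58 CPM in the attached libraries and 17.1, 19.3 and 15.6 CPM in the floating libraries (1.22 ± 0.11, edgeR adjusted p 3.68e-09). ETV4, an ETS factor downstream of ERK, went from 58.2, 57.8 and 55.1 CPM attached to 103, 99.4 and 98.9 CPM floating (0.81 ± 0.05), and ETV5 from 45.97, 45.02 and 44.1 CPM attached to 48.3, 50.02 and 50.6 CPM floating (0.14 ± 0.05). SPRY2, a feedback inhibitor of receptor signaling, was at 7.03, 8.47 and 7.29 CPM in the attached libraries and 9.31, 9.27 and 10.9 CPM in the floating libraries (0.37 ± 0.13). CCND1, the cyclin D1 that ERK sustains, fell from 361, 370.05 and 375 CPM attached to 277, 275 and 275 CPM floating (-0.42 ± 0.04). Of 20 such genes, 13 rose and 4 fell, with a median of 0.49. The ETV5 and SPRY2 calls were weak. That of ETV5 was lost with DESeq2, without the low-count filter and when leaving out each of 4 control libraries (0.12 to 0.14), and that of SPRY2 when leaving out each of 3 (0.29 to 0.34).

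Of the receptors upstream, ERBB3 went from 6.25, 5.87 and 5.62 CPM attached to 12.3, 13.97 and 12.4 CPM floating (1.12 ± 0.12) while EGFR went from 275, 296 and 276 CPM attached to 250.01, 253 and 231 CPM floating (-0.21 ± 0.06) and ERBB2 from 89.9, 88.4 and 87.6 CPM attached to 73.6, 66.5 and 67.1 CPM floating (-0.36 ± 0.05). The EGFR call was lost under robust empirical Bayes and without attached control replicate 2 or floating control replicate 3 (-0.17 each). NRG1, a ligand of ERBB3, fell from 218, 226 and 209.8 CPM attached to 108, 111 and 98.2 CPM floating (-1.04 ± 0.05), and the ligand AREG was at 54.1, 55.9 and 54.4 CPM in the attached libraries and 51.6, 53.1 and 45.8 CPM in the floating libraries and was not called (-0.13 ± 0.06). Of 16 receptors, ligands and regulators of this family, 14 were tested, 3 rose and 3 fell (21.4% each), near the 19.6% and 20.5% of all genes tested.

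Targets of YAP and TEAD fell in step. ANKRD1, a nuclear and sarcomeric adaptor and a common reporter of YAP (ENSG00000148677, chr10:90912096-90921087, minus strand), was at 8.75, 9.12 and 7.86 CPM in the attached libraries and 1.24, 1.204 and 0.397 CPM in the floating libraries (-3.18 ± 0.23, edgeR adjusted p 4.09e-11). AMOTL2, an angiomotin that restrains YAP in turn, went from 104, 101 and 105 CPM attached to 24.01, 22.2 and 20.6 CPM floating (-2.21 ± 0.06). The matricellular proteins CCN1 and CCN2 fell too, CCN1 from 49.2, 44.97 and 50.7 CPM attached to 15.2, 16.5 and 16.3 CPM floating (-1.59 ± 0.07) and CCN2 from 5.598, 5.65 and 5.22 CPM attached to 1.13, 1.57 and 1.47 CPM floating (-1.98 ± 0.20). All 4 genes were lower in every floating library than in any attached library. Of 23 targets, all tested, 20 fell and 2 rose, with a median of -0.58. The 2 that rose were IGFBP3, which binds insulin-like growth factors and went from 543, 504 and 538 CPM attached to 2438, 2380.2 and 2189 CPM floating (2.14 ± 0.09), and NT5E (0.90), the surface nucleotidase CD73.

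TEAD factors bind GGAATG on either strand, and the promoter windows of both strong targets are shown with the match nearest to the start in capitals.
ANKRD1 (chr10:90921200-90921225, minus strand): cactgagtctGGAATGaaaattcacc
CCN2 (chr6:131951452-131951477, minus strand): aggaatgcgaGGAATGtccctgtttg
The promoter of CCN2 held 3 matches upstream of its start and that of ANKRD1 held 2. A match was found in 7 of 17 promoters of the list, or 41.2%, against 11.03% of promoters of genes tested and 18.2% of promoters of genes that fell 2-fold or more. The list is of known YAP and TEAD targets, so its share describes the list. The 250 bases before the start of AMOTL2 held none.

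The actin cytoskeleton and focal adhesions were lowered over most of their parts. ACTB, which encodes beta-actin and often serves as a reference gene, went from 5241, 4844 and 5081 CPM attached to 2717, 2616 and 2582 CPM floating and fell by 0.94 on the log2 scale (SE 0.04, edgeR adjusted p 1.36e-14). FLNA, a crosslinker of actin filaments, went from 3956, 4247 and 4230.3 CPM attached to 2004, 1848 and 1912 CPM floating (-1.11 ± 0.05), and ACTN1, another crosslinker, from 456, 488 and 480.4 CPM attached to 333, 297 and 315 CPM floating (-0.59 ± 0.05). TPM1, a tropomyosin that stabilises filaments, went from 321, 315 and 319.7 CPM attached to 113, 109 and 111 CPM floating (-1.52 ± 0.04). VCL, the vinculin that ties integrin complexes to actin, went from 381, 394 and 389 CPM attached to 249, 258 and 244 CPM floating (-0.63 ± 0.04). LIMA1, an actin-binding LIM protein, rose from 18.5, 17.9 and 18.4 CPM attached to 24.4, 26.5 and 27.2 CPM floating (0.51 ± 0.07). Of 40 genes, 39 were tested, 25 fell and 6 rose, with a median of -0.49. The kinase PTK2, which encodes FAK, was not called (0.04), and ILK (-0.14) was not called either. CNN1, a calponin, was at or under 2 counts in every floating library, at least 2.6-fold lower than attached.

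Integrins rose more often than they fell. ITGA2, the collagen-binding alpha 2 subunit, was at 54.9, 59.8 and 64.05 CPM in the attached libraries and 148, 145 and 141 CPM in the floating libraries (1.28 ± 0.11, edgeR adjusted p 1.48e-09). ITGB4, the beta subunit of the laminin receptor of hemidesmosomes, went from 114, 119.8 and 126 CPM attached to 301, 266 and 267 CPM floating (1.21 ± 0.10), and its partner ITGA6 went from 135, 139 and 132 CPM attached to 174, 173 and 181 CPM floating (0.38 ± 0.06). The fibronectin receptor subunit ITGA5 went from 88.02, 84.6 and 89.8 CPM attached to 135, 123 and 118 CPM floating (0.52 ± 0.09), and ITGA10, a collagen receptor subunit, from 4.82, 5.38 and 4.65 CPM attached to 15.6, 14.7 and 14.8 CPM floating (1.60 ± 0.09). ITGB1, the beta subunit most of them share, was at 2539, 2534 and 2557 CPM in the attached libraries and 2642, 2741 and 2578 CPM in the floating libraries and was not called (0.06 ± 0.04). ITGAV was at 205, 206 and 211 CPM in the attached libraries and 217, 226 and 220.4 CPM in the floating libraries (0.10 ± 0.04) and passed the threshold only under 4 of the alternatives. ITGB6, the epithelial partner of ITGAV, fell from 8.099, 8.09 and 10.5 CPM attached to 3.14, 2.59 and 2.21 CPM floating (-1.75 ± 0.17). Of 26 integrin genes, 24 were tested, 9 rose and 2 fell, the second being ITGAE (-0.34).

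Matrix genes went both ways by large amounts. FN1, the fibronectin gene, was at 1475, 1623 and 1561 CPM in the attached libraries and 4245, 4004 and 3889 CPM in the floating libraries (1.38 ± 0.04, edgeR adjusted p 8.02e-18), and LOX, which crosslinks collagen and elastin, went from 6.91, 6.84 and 6.66 CPM attached to 45.6, 46.1 and 47.5 CPM floating (2.77 ± 0.34). EFEMP1, a fibulin, fell from 31.6, 25.6 and 29.1 CPM attached to 5.39, 5.66 and 5.16 CPM floating (-2.41 ± 0.10). The fibrillar collagen gene COL5A1 went from 233, 239 and 249 CPM attached to 71.1, 70.1 and 71.6 CPM floating (-1.76 ± 0.04) and COL12A1 from 17.03, 20.6 and 21.8 CPM attached to 4.33, 3.49 and 4.42 CPM floating (-2.28 ± 0.11). Of the chains of laminin-332, LAMB3, the beta 3 chain, rose (0.88) and LAMA3, the alpha 3 chain, fell slightly (-0.15). FBN2, a fibrillin of microfibrils, fell from 168, 182 and 178 CPM attached to 42.3, 39.97 and 40.6 CPM floating (-2.10 ± 0.05). Of 60 matrix genes, 52 were tested, 17 rose and 21 fell, with a median of 0.02.

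DNA replication was the list with the lowest median. MCM2, a subunit of the helicase that opens replication origins, was at 109, 111 and 113 CPM in the attached libraries and 59.5, 59.1 and 62.9 CPM in the floating libraries (-0.88 ± 0.06, edgeR adjusted p 3.58e-12). MCM4, of the same ring, went from 369, 359 and 367 CPM attached to 202, 206 and 207 CPM floating (-0.83 ± 0.05), and CDC6, which loads it, from 94.7, 93.2 and 87.1 CPM attached to 55.9, 52.3 and 54.7 CPM floating (-0.76 ± 0.05). RRM2, the ribonucleotide reductase subunit that limits the supply of deoxynucleotides, went from 112, 110.1 and 104 CPM attached to 65.2, 67.7 and 64.1 CPM floating (-0.73 ± 0.05). CDC45, which completes the active helicase, went from 35.4, 36.1 and 34.3 CPM attached to 25.1, 23.96 and 25.6 CPM floating (-0.50 ± 0.07). PCNA, the sliding clamp, stood apart from these at 515, 480.02 and 483 CPM in the attached libraries and 486, 519 and 487 CPM in the floating libraries (0.01 ± 0.05, not called). Of 41 genes, all tested, 40 fell and PCNA alone was not called, with a median of -0.70, and UHRF1 fell furthest (-1.22). None was higher, and only UHRF1 and CLSPN (-1.04) fell by 2-fold or more.

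Mitotic genes followed with smaller changes. CDC20, an activator of the anaphase-promoting complex, was at 168, 151 and 163 CPM in the attached libraries and 86.6, 79.5 and 86.5 CPM in the floating libraries (-0.93 ± 0.05, edgeR adjusted p 5.49e-14). PLK1, a mitotic kinase, went from 169.8, 171 and 169.6 CPM attached to 110.4, 104 and 108 CPM floating (-0.66 ± 0.05), AURKA from 125, 139 and 131 CPM attached to 93.6, 95.1 and 87.02 CPM floating (-0.52 ± 0.05) and CCNB1, the cyclin of entry into mitosis, from 268, 254 and 251 CPM attached to 178, 185 and 183 CPM floating (-0.50 ± 0.05). CDK1 went from 187, 174 and 182 CPM attached to 138, 157 and 149 CPM floating (-0.29 ± 0.05). The proliferation marker MKI67 fell from 627, 693 and 652 CPM attached to 407, 395 and 394 CPM floating (-0.72 ± 0.05), and TOP2A from 725, 742 and 745 CPM attached to 546, 581 and 557 CPM floating (-0.39 ± 0.04). Of 35 mitotic genes, 33 fell, none rose, and CDC25C (-0.09) and PRC1 (-0.28) were not called. The median was -0.48, and no member fell by 2-fold.

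E2F factors drive replication genes, and many late genes carry a cell cycle homology region (CHR). The windows below show an E2F site (TTTCCCGC, TTTGGCGC or TTTCGCGC on either strand) in E2F1 and MCM7 and a CHR (TTTGAA on either strand) in CDC20, PLK1 and CDK1, in capitals.
E2F1 (chr20:33686389-33686414, minus strand): caaaaaggaTTTGGCGCgtaaaagtg
MCM7 (chr7:100101398-100101423, minus strand): tcacgtggggggcgacgTTTCGCGCc
CDC20 (chr1:43358906-43358931, plus strand): acggttggatTTTGAAggagccaata
PLK1 (chr16:23678850-23678875, plus strand): cagcgccgcgTTTGAAttcggggagg
CDK1 (chr10:60778160-60778185, plus strand): gtataataaaTTTGAActgtgccaat
An E2F site was found in 20 of 36 promoters of the replication list, or 55.6%, against 4.34% of promoters of genes tested, and in 2 of 29 of the mitosis list. A CHR was found in 19 of 29 promoters of the mitosis list, or 65.5%, against 9.81% of promoters of genes tested, and in 1 of 36 of the replication list. Both lists were chosen by known function, so these shares describe the lists and not the response to suspension. Among promoters of genes that fell 2-fold or more, 3.25% held an E2F site and 10.4% a CHR. In the 250 bases before the start, MCM2, CDC6, RRM2 and CDC45 held no E2F site and CCNB1 no CHR.

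**Figure D4:**
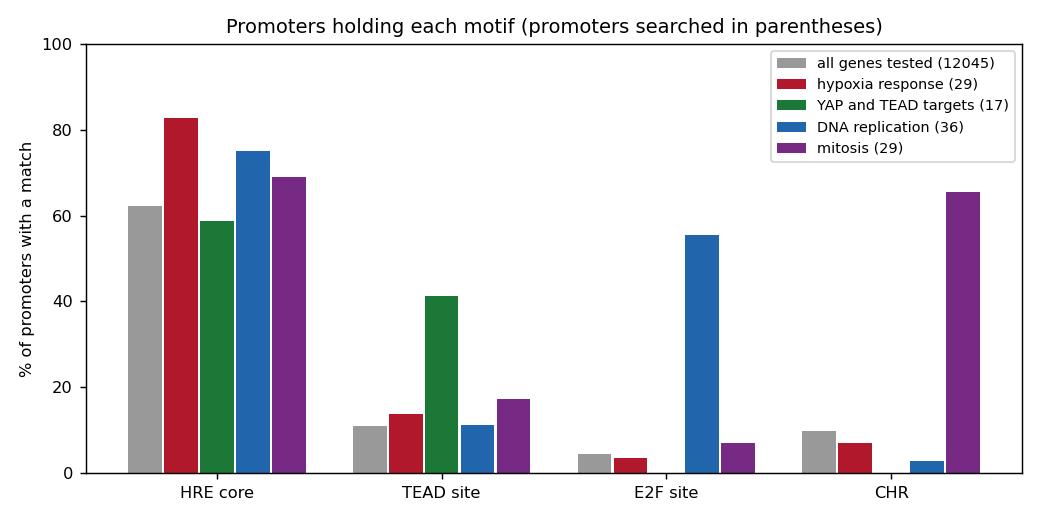
Share of promoters (y axis, percent) with at least 1 match to each motif (x axis) for all genes tested and for 4 gene lists, with the number of promoters searched in parentheses. E2F sites stand out in the replication list (55.6%), CHRs in the mitosis list (65.5%) and TEAD sites in the list of YAP and TEAD targets (41.2%), while the hypoxia core is common in all sets. The lists were chosen by known function or as known targets, so these shares describe the lists.

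Regulators of G1 fell more often than they rose. E2F1, which starts the S phase program, was at 62.2, 69.6 and 61.2 CPM in the attached libraries and 35.5, 35.5 and 32.2 CPM in the floating libraries (-0.91 ± 0.06, edgeR adjusted p 2.83e-11), and CCND3, the cyclin D3, went from 434, 411 and 399.9 CPM attached to 229, 223 and 219.8 CPM floating (-0.89 ± 0.05). Of the CDK inhibitors, CDKN1B (p27) rose from 53.6, 46.9 and 48.7 CPM attached to 79.2, 82.5 and 82.7 CPM floating (0.71 ± 0.05), CDKN1A (p21) from 246, 242 and 241 CPM attached to 340.2, 333 and 332 CPM floating (0.47 ± 0.05) and CDKN1C (p57), at low levels, from 1.55, 1.85 and 1.55 CPM attached to 3.56, 2.95 and 3.57 CPM floating (1.02 ± 0.24), while CDKN2C (-0.08) and CDKN2D (-0.02) were not called. CCNG2, an atypical cyclin of arrested cells, rose from 12.1, 10.97 and 10.8 CPM attached to 39.7, 34.97 and 40.6 CPM floating (1.77 ± 0.07). CCNE2 was at 7.15, 7.87 and 8.72 CPM in the attached libraries and 5.99, 6.56 and 6.402 CPM in the floating libraries and was not called (-0.33 ± 0.14). Its call was gained from the 6 control libraries alone (-0.32) and without attached GFI1 replicate 1 (-0.33). Of 27 cyclins, CDKs, inhibitors and E2F or retinoblastoma proteins, 24 were tested, 13 fell and 5 rose.

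Genes that rise when growth factor signaling through PI3K falls, many of them targets of FOXO factors, rose together. TXNIP, which binds thioredoxin and curbs glucose uptake, was at 1.49, 1.68 and 1.55 CPM in the attached libraries and 7.47, 6.32 and 9.12 CPM in the floating libraries (2.27 ± 0.18, edgeR adjusted p 2.09e-10). PDK4, a starvation-induced inhibitor of pyruvate use, went from 308, 305 and 292 CPM attached to 493, 518 and 498 CPM floating (0.74 ± 0.05), and IRS2, an adaptor of the insulin receptor, from 107, 108 and 103 CPM attached to 159.9, 170.1 and 154 CPM floating (0.61 ± 0.08). The repressor BCL6 (1.42) and FBXO32 (1.04), a ubiquitin ligase of muscle wasting, rose as well. Of 21 genes, 20 were tested, 17 rose and none fell, with a median of 0.96. FOXO1 (0.20), KLF9 (0.18) and SESN3 (0.14) were not called.

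The BCL2 family decides on apoptosis at mitochondria, through members that promote death and members that protect from it. BMF, a BH3-only protein released from the cytoskeleton, was at 2.203, 1.36 and 1.32 CPM in the attached libraries and 4.801, 3.67 and 4.702 CPM in the floating libraries (1.44 ± 0.18, edgeR adjusted p 6.12e-07). BBC3 (PUMA) went from 19.5, 19.7 and 22.6 CPM attached to 44.9, 42.3 and 43.8 CPM floating (1.08 ± 0.08), and BCL2L11 (BIM), a known mediator of anoikis, from 18.6, 17.3 and 15.3 CPM attached to 23.5, 22.6 and 19.7 CPM floating (0.36 ± 0.08). BCL2L1, which encodes the protective BCL-XL, fell from 197, 180.03 and 184 CPM attached to 130.1, 125 and 122 CPM floating (-0.57 ± 0.06), as did BCL2 (-1.03). MCL1, also protective, went from 265, 272 and 268 CPM attached to 355, 346 and 352 CPM floating (0.39 ± 0.11), and that call was lost under robust empirical Bayes. Of 20 members, 8 rose and 5 fell, and the pore former BAX was not called (-0.04).

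Among other stress genes, GDF15, a stress cytokine, and MDM2, a ubiquitin ligase, were called higher. GDF15 was at 67.1, 60.8 and 62.96 CPM in the attached libraries and 133, 122 and 108 CPM in the floating libraries (0.93 ± 0.10), and MDM2 went from 103, 105 and 102 CPM attached to 125, 121 and 125 CPM floating (0.26 ± 0.04). SESN2, a stress-induced sestrin, was at 16.6, 17.3 and 15.04 CPM in the attached libraries and 17.6, 17.5 and 15.4 CPM in the floating libraries and was not called (0.05 ± 0.09).

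Autophagy and lysosomal genes rose by small amounts. CTSL, a lysosomal protease, was at 276, 269 and 265 CPM in the attached libraries and 551, 569 and 562 CPM in the floating libraries (1.05 ± 0.04, edgeR adjusted p 4.47e-16). ULK1, the kinase that starts autophagy, went from 109.6, 109 and 112 CPM attached to 138, 137 and 137 CPM floating (0.32 ± 0.04), the cargo receptor SQSTM1 from 759, 697 and 753 CPM attached to 891, 908 and 857 CPM floating (0.27 ± 0.05), and MAP1LC3B, whose product coats autophagosomes, from 58.1, 51.8 and 52.3 CPM attached to 64.1, 67.4 and 63.5 CPM floating (0.27 ± 0.06). LAMP1, a lysosomal membrane protein, was at 184, 174 and 177 CPM in the attached libraries and 176, 186 and 178 CPM in the floating libraries (0.01 ± 0.04, not called). Of 41 genes, 40 were tested, 21 rose and 1 fell, MITF (-0.45 ± 0.12), a regulator of lysosomal genes, with a median of 0.22.

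The branches of protein stress parted. In the endoplasmic reticulum, DNAJB9, a cochaperone of BiP, was at 18.6, 14.99 and 16.9 CPM in the attached libraries and 41.4, 45.7 and 40.1 CPM in the floating libraries (1.33 ± 0.09, edgeR adjusted p 1.15e-11). XBP1, a transcription factor of the unfolded protein response, went from 162, 149 and 148 CPM attached to 271, 286 and 264 CPM floating (0.84 ± 0.06), and HSPA5, which encodes BiP, from 829, 822 and 799 CPM attached to 1011, 999 and 885 CPM floating (0.24 ± 0.05). Of 22 genes of this response 17 rose and none fell, with a median of 0.21. Cytosolic chaperones went down. DNAJB1 fell from 189, 189.8 and 178 CPM attached to 142, 137 and 137 CPM floating (-0.42 ± 0.04), HSPB1 from 444, 407 and 417 CPM attached to 312, 293 and 289 CPM floating (-0.50 ± 0.05) and HSPA1A, which shares reads with its near-identical copy HSPA1B, from 141, 127 and 138 CPM attached to 115, 112 and 107 CPM floating (-0.28 ± 0.06). Of 20 such chaperones 17 fell and 1 rose, with a median of -0.27. The 1 that rose, CRYAB, had 1.07, 1.19 and 0.918 CPM attached and 1.66, 2.95 and 2.32 CPM floating, and its call was lost without attached control replicate 3 (1.02) or floating control replicate 2 (0.90).

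Genes of amino acid supply under ATF4 were lower on balance. ATF4 itself was at 263, 243 and 245 CPM in the attached libraries and 249, 248 and 237 CPM in the floating libraries (-0.03 ± 0.05, not called). SLC7A5, the leucine transporter LAT1, was at 1386, 1398 and 1418 CPM in the attached libraries and 805, 777 and 756 CPM in the floating libraries (-0.85 ± 0.05, edgeR adjusted p 4.20e-12). PHGDH (-1.03) and PSAT1 (-0.71), enzymes of serine synthesis, also fell. TRIB3, a pseudokinase induced by stress, rose from 117, 108 and 112 CPM attached to 178, 184 and 154 CPM floating (0.62 ± 0.12), and DDIT3 (CHOP), another stress gene, went from 6.13, 4.67 and 6.08 CPM attached to 8.48, 6.62 and 7.14 CPM floating (0.40 ± 0.14), a call lost without attached control replicate 2 (0.28) or floating control replicate 1 (0.29). Of 27 genes 14 fell and 5 rose, with a median of -0.31. The tRNA synthetases, which charge tRNAs with amino acids, fell in 14 of 20 cases and rose in 2. AARS1 fell from 391, 425 and 395 CPM attached to 299, 276 and 296 CPM floating (-0.47 ± 0.05) and MARS1 from 228, 232 and 229.6 CPM attached to 162, 151 and 156 CPM floating (-0.55 ± 0.04).

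Lipid genes were mixed. SCD, the desaturase that makes monounsaturated fatty acids, was at 1558, 1614 and 1560.1 CPM in the attached libraries and 2865, 3015 and 2788 CPM in the floating libraries (0.87 ± 0.05, edgeR adjusted p 4.46e-13), while FASN, which makes the chain itself, fell from 776, 776 and 789.6 CPM attached to 633, 636 and 606 CPM floating (-0.32 ± 0.04). HMGCS1, an early enzyme of sterol synthesis, fell from 163, 176 and 166 CPM attached to 116, 134 and 129 CPM floating (-0.41 ± 0.05). Of 26 sterol genes 7 rose and 9 fell, and of 15 tested lipogenic genes 6 rose and 3 fell.

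A549 is known for a defect in KEAP1, the protein that degrades the antioxidant factor NRF2, and several NRF2 targets were abundant here. ALDH3A1, an aldehyde dehydrogenase, was at 2611, 2591 and 2548 CPM in the attached libraries and 5089, 5043 and 4919.5 CPM in the floating libraries (0.96 ± 0.04, edgeR adjusted p 3.90e-15). The quinone reductase NQO1 went from 1968, 1865 and 1859 CPM attached to 2659.9, 2674 and 2645 CPM floating (0.49 ± 0.05). TXNRD1, the thioredoxin reductase, went from 1537, 1490.2 and 1518 CPM attached to 1348, 1438 and 1377 CPM floating (-0.13 ± 0.05), a call lost with upper quartile scaling (-0.11), with library size only (-0.11) and when leaving out each of 4 control libraries (-0.13 to -0.11). HMOX1 was at 75.03, 63.8 and 64.9 CPM in the attached libraries and 68.1, 65.98 and 66.96 CPM in the floating libraries (-0.02 ± 0.06) and GCLM at 191, 175 and 175 CPM in the attached libraries and 172, 178 and 183 CPM in the floating libraries (-0.02 ± 0.04), both not called. Of 27 genes 11 rose and 4 fell, with a median of 0.11.

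More interferon response genes rose than fell. IFITM1, a membrane protein that blocks viral entry, was at 2.68, 2.44 and 1.89 CPM in the attached libraries and 7.76, 7.22 and 6.57 CPM in the floating libraries (1.62 ± 0.16, edgeR adjusted p 1.50e-08). OAS3, a sensor of double-stranded RNA, fell from 160.2, 166 and 156 CPM attached to 106, 98.2 and 96.7 CPM floating (-0.68 ± 0.08). ISG15 (-0.16 ± 0.16) and IFIT1 (0.15 ± 0.20) were not called. Of 43 genes 42 were tested, 15 rose (35.7%) and 4 fell (9.52%), with a median of 0.21. Among NF-kB and cytokine genes, PTGS2, the inducible cyclooxygenase, rose from 161, 169 and 170.2 CPM attached to 534, 535 and 526 CPM floating (1.67 ± 0.05), and NFKBIA, the inhibitor of NF-kB, from 68.2, 63.1 and 61.3 CPM attached to 94.3, 91.3 and 87.98 CPM floating (0.51 ± 0.05). CXCL8, the chemokine IL-8, went from 77.9, 73.4 and 69.5 CPM attached to 90.3, 94.1 and 81.8 CPM floating (0.27 ± 0.05), and TNFAIP3 was not called (0.15 ± 0.09). IL11, a cytokine of the IL-6 family, fell from 16.5, 12.5 and 14.3 CPM attached to 3.497, 2.71 and 3.17 CPM floating (-2.20 ± 0.18). Of 31 genes 27 were tested, 7 rose and 7 fell (25.9% each), near the 19.6% and 20.5% of all genes tested.

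Epithelial identity genes did not move as a block. CDH1 (E-cadherin) was at 118, 119 and 122 CPM in the attached libraries and 89.4, 82.8 and 83.96 CPM in the floating libraries (-0.49 ± 0.05, edgeR adjusted p 1.06e-08), and CDH2 (N-cadherin), usually taken as its mesenchymal counterpart, fell too, from 29.9, 34.2 and 30.5 CPM attached to 19.5, 20.5 and 21.9 CPM floating (-0.61 ± 0.08). VIM, the mesenchymal filament protein vimentin, was at 449, 422 and 408 CPM in the attached libraries and 449, 442 and 426 CPM in the floating libraries (0.04 ± 0.10), and the repressor ZEB1 at 29.4, 28.8 and 30.9 CPM in the attached libraries and 31.0, 28.6 and 29.1 CPM in the floating libraries (-0.0047 ± 0.06), both not called. CLDN1, of tight junctions, fell from 102, 104 and 99.9 CPM attached to 62.2, 59.4 and 62.2 CPM floating (-0.73 ± 0.05). CEACAM6, an adhesion molecule often high in carcinoma, rose from 198, 187 and 192 CPM attached to 409, 452 and 397 CPM floating (1.12 ± 0.06), and so did the mucin MUC1, from 9.05, 7.77 and 6.6 CPM attached to 24.1, 27.4 and 27.5 CPM floating (1.75 ± 0.10). Of 34 genes 32 were tested, 10 rose and 7 fell. The abundant keratins of simple epithelium were lower, with KRT8 from 5868, 5841 and 5598 CPM attached to 3827, 3691 and 3588 CPM floating (-0.64 ± 0.05), KRT18 from 2832, 2596 and 2583 CPM attached to 1739, 1827 and 1621 CPM floating (-0.63 ± 0.05) and KRT7 from 2164, 1987 and 2079 CPM attached to 1277, 1311 and 1232 CPM floating (-0.71 ± 0.04). KRT19, at 13 to 38 counts, was not called (0.76 ± 0.33). The 12 epithelial markers summed to 10395 to 10998 CPM in attached and 6559 to 6966 CPM in floating libraries, and of 9 tested 4 fell and 1 rose. Of the 18 markers of other cell types 7 were tested, with a median of 0.79. CD14 (1.195 ± 0.15) and the fibroblast marker PDGFRA (1.91 ± 0.45, 3 to 28 counts) rose, and COL1A1 (-0.50 ± 0.11), another fibroblast marker, fell.

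Ribosomal and respiratory genes changed by small amounts, and no tested member changed 2-fold. Of 86 tested cytosolic ribosomal protein genes 3 rose and 11 fell, with a median of -0.02. RPL15, the called riser with the lowest adjusted p, was at 1197, 1034 and 1128 CPM in the attached libraries and 1277, 1331 and 1221 CPM in the floating libraries (0.19 ± 0.05), and its call was lost without attached control replicate 2 (0.13). Mitochondrial ribosomal protein genes fell in 37 of 77 cases and rose in 1, by small amounts (median -0.16), and MRPL33 fell from 49.7, 49.5 and 49.1 CPM attached to 34.7, 37.1 and 36.7 CPM floating (-0.45 ± 0.05). Complex I gave 3 higher and 8 lower of 37, and complexes II to V gave 5 and 8 of 41. Of 13 mRNAs of the mitochondrial genome 2 rose and 5 fell, and MT-CO1, of cytochrome c oxidase, went from 17698, 18412 and 17817 CPM attached to 19873, 20487 and 19478 CPM floating (0.15 ± 0.04).

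GFI1-expressing cells went through the same 48 hours of suspension and show where the control response differs. Their own effect was called for 5577 genes (31.3%), higher for 15% and lower for 16.3% of genes tested. The difference, the log2 fold change in control cells minus that in GFI1-expressing cells, was tested in the same edgeR model and called for 1919 genes (10.8%), with 1071 positive (6.01%) and 848 negative (4.76%). Without floating GFI1 replicate 2 it was called for 1972 genes, and without replicate 3 for 2090. Of the 660 genes that rose 2-fold or more in control cells, 350 were also called higher in GFI1-expressing cells and 1 was called lower, and the medians were 1.38 and 0.67. The difference was called for 201 of them, 194 with the larger rise in control cells. Of the 249 that fell 2-fold or more, 125 were called lower and 4 higher in GFI1-expressing cells, and the difference was called for 90, 87 with the larger fall in control cells. These genes were chosen by their size in control cells, a value that also enters the difference. A larger change in control cells is thus favored by the choice, and these medians and counts are a description.

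TXNIP gave a clear difference. Its control level went from 1.49 to 1.68 CPM to 6.32 to 9.12 CPM with suspension, and in GFI1-expressing cells the attached libraries held 6.51 to 7.61 CPM and the floating libraries 6.12 to 8.31 CPM. The log2 fold change was 2.27 ± 0.18 in control and 0.04 ± 0.14 in GFI1-expressing cells (difference 2.23 ± 0.23, edgeR adjusted p 2.57e-07). BMF rose in control cells and fell in the others (1.44 ± 0.18 against -0.26 ± 0.10, difference 1.70 ± 0.21, edgeR adjusted p 2.96e-06), and BCL2L11 did the same (0.36 ± 0.08 against -0.31 ± 0.06). The level of BMF was nonetheless higher in GFI1-expressing cells. Their attached libraries held 21.3 to 24.6 CPM and their floating libraries 18.2 to 19.2 CPM, against at most 4.80 CPM in any control library. CA9 rose in both genotypes, by 5.28 in control and 2.71 in GFI1-expressing cells (difference 2.57 ± 0.55, edgeR adjusted p 0.00248), and this call was lost under robust empirical Bayes. Its mean went from 0.361 to 14.3 CPM in control and from 3.10 to 20.2 CPM in GFI1-expressing cells. NPTX1, a neuronal pentraxin, fell in control cells (-1.97 ± 0.39) and rose in the others (1.83 ± 0.21). SLCO4A1, an organic anion transporter, rose in GFI1-expressing cells (2.44 ± 0.21) more than in control cells (0.65 ± 0.20, a call lost with DESeq2 and robust empirical Bayes), as did ADM (1.70 ± 0.12 against 0.42 ± 0.13 in control cells). VIM was not called in control cells and rose in GFI1-expressing cells (0.97 ± 0.11, difference -0.93 ± 0.15). Without floating GFI1 replicate 2 the differences were 2.94 for CA9, 2.14 for TXNIP, 1.73 for BMF, 0.65 for BCL2L11, -3.32 for NPTX1, -1.39 for SLCO4A1, -1.03 for ADM and -0.67 for VIM. Without replicate 3 they were 2.27, 2.35, 1.68, 0.68, -4.14, -2.09, -1.41 and -1.09 in the same order, and all these were called.

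By list, the replication and mitosis genes fell in both genotypes. The replication median was -0.70 in control and -0.59 in GFI1-expressing cells, and the difference was called for 4 of 41 genes. For mitosis the medians were -0.48 and -0.54, with the difference called for 3 of 35. The hypoxia list gave medians of 1.01 and 0.98, with 8 positive and 5 negative differences among 37. Of 39 actin and focal adhesion genes, 17 had a negative and 2 a positive difference, and the medians were -0.49 and -0.19. Of 20 FOXO and starvation genes, 9 had a positive difference and none a negative one (0.96 against 0.38). Of 27 NRF2 targets the counts were 14 and 0 (0.11 against -0.08), of 42 interferon genes 11 and 0 (0.21 against -0.18), and of 40 autophagy and lysosomal genes 11 and 0. Each count stands beside the 6.01% and 4.76% of all genes tested.

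**Figure D5:**
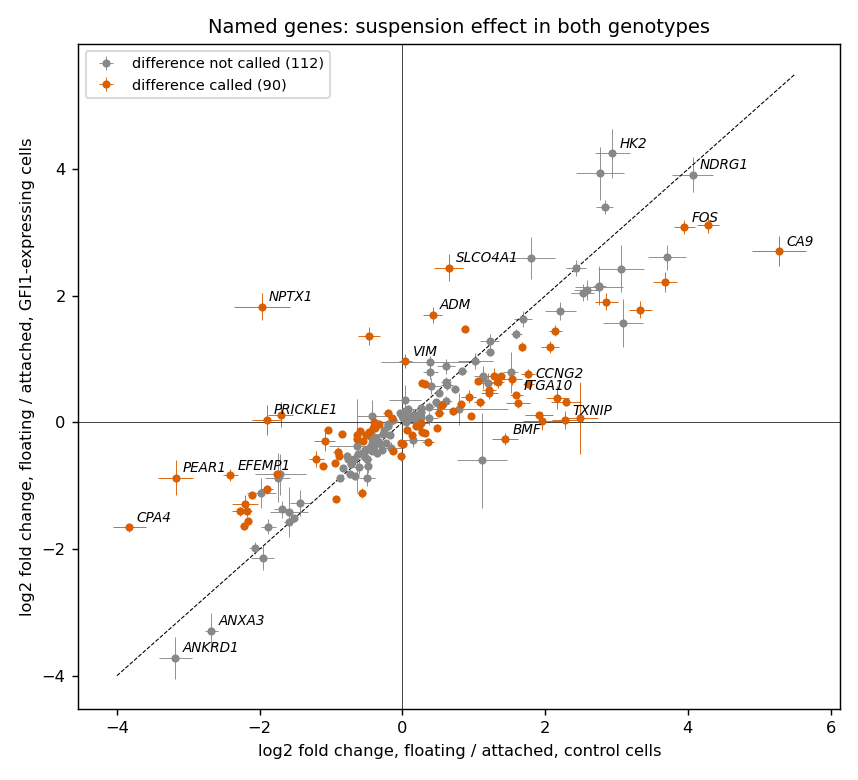
Log2 fold change with suspension (floating over attached) in control cells (x axis) and in GFI1-expressing cells (y axis) for the 202 named genes, with bars of 1 standard error, the line of equality dashed, and orange for the 90 genes whose difference was called. Several genes with a large change in control cells, such as TXNIP (2.27 against 0.04) and CPA4 (-3.83 against -1.66), lie nearer to 0 in GFI1-expressing cells.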

How the data were processed

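The deposited values were raw counts per gene for 12 libraries, made by the authors from poly-A-selected RNA. The methods of the study name Hisat2 and featureCounts on GRCh38, whereas the submitters' processing notes name Bowtie2, HTSeq and hg38, and annotation release and strandedness are not given in the sources used here. Of 58735 gene identifiers, 99.1% were found in GENCODE v44, used for gene type and position. In the deposited file, 27 symbols had become dates and were restored through identifiers. Genes that overlap or have near-identical copies may share or lose reads.

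Testing was done with edgeR 4.0.16 under R 4.3.3. filterByExpr on the 4 groups (minimum count 10, minimum total 15) kept 17829 genes. Libraries were scaled by TMM, and all 12 libraries entered 1 quasi-likelihood fit of 4 group means. Tests were two-sided with Benjamini-Hochberg adjustment over all genes tested, called at 0.05 or less with no fold threshold. P values measure the spread between these samples. At this depth, a group with at most 3 counts in each library was treated as at the floor. On simulated data of 16876 genes for the control comparison, 60.4% of planted changes of 0.5 log2 and 88.3% of 1 log2 were recovered, with 6 false calls. The simulation gave every gene the same spread (coefficient of variation 4.86%) and tested 91 and 94 planted genes of these sizes. In the data the spread differs by gene and far more genes were called, so these rates may not hold there.

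The members, 36 gene lists and families and the naming rule were chosen with earlier results of these data known. Named genes were the 15 highest and 15 lowest protein-coding genes, fixed core members of each list, the called member with the lowest adjusted p per list and direction, the 6 highest and 6 lowest differences, and the 5 highest and 5 lowest long noncoding RNA genes, by mean log2 CPM of at least 1 (prior count 2) and, within control cells, groups without overlap. Core members too low to test were KLF15, MYL9, IL6, PTPRC and PECAM1. No set test was run. Several genes and 1 list are not reported here. Alternatives were DESeq2 1.42.0, other scalings and filters, robust empirical Bayes, a replicate block, control libraries alone, a fold threshold and leaving out each library.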

Additional observations from a re-analysis of the deposited data

Results flagged for a closer look

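Of the 202 named genes, 90 responded to suspension differently in control and in GFI1-expressing cells by the edgeR test of the difference itself (adjusted p of 0.05 or less), beside 10.8% of all genes tested. Some were named for this difference, and others for the size or adjusted p of their control change, which also enters the difference. A larger share than among all genes is thus favored by the choice, and the count is a description. Each value below is the log2 fold change in control cells minus that in GFI1-expressing cells.

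Positive differences were largest for CA9 (2.57), LINC02889 (2.42), TXNIP (2.23), TCN1 (1.97), TRIM31 (1.93), LGALS9B (1.79, with a near-identical copy in LGALS9C, so uncertain), RAB37 (1.78) and BMF (1.70). TCN1 went from 1.19, 0.652 and 0.689 CPM attached to 4.21, 4.39 and 3.796 CPM floating in control cells, TRIM31 from 0.536, 0.3801 and 0.631 CPM attached to 2.07, 2.23 and 1.76 CPM floating and RAB37 from 2.203, 2.23 and 2.01 CPM attached to 10.6, 9.87 and 8.61 CPM floating, while their log2 fold changes in GFI1-expressing cells were 0.33, 0.02 and 0.39. In attached GFI1-expressing cells TCN1 already stood at 57.2 to 62.4 CPM and TRIM31 at 5.86 to 7.66 CPM, above every floating control library, and RAB37 at 2.003 to 2.77 CPM. LGALS9B stood at 82.7 to 87.8 CPM there, against 2.59 to 3.57 CPM in floating control libraries. The LINC02889 call was lost without attached GFI1 replicate 1 (1.93) or 2 (2.08). STC1 (1.55) and the hypoxia and glucose genes ALDOC (1.46), PPFIA4 (1.16), ANGPTL4 (0.95) and CITED2 (0.88) had a larger rise in control cells. In each of these the attached mean was higher in GFI1-expressing than in control cells. It was 46.7 against 12.9 CPM for STC1, 4.69 against 2.91 CPM for ALDOC and 3.49 against 1.67 CPM for PPFIA4. For ANGPTL4 it was 58.6 against 17.3 CPM and for CITED2 54.5 against 12.3 CPM. The floating mean was also higher in GFI1-expressing cells for STC1, ANGPTL4 and CITED2, and lower for ALDOC and PPFIA4. Adhesion and surface genes were ITGA10 (1.16), MUC1 (0.99), ITGB2-AS1 (0.86), ITGB4 (0.70), FN1 (0.65), ITGA2 (0.55), LIMA1 (0.36) and ITGB1 (0.17). ITGA10 stood at 94.7 to 99.1 CPM in attached GFI1-expressing cells, against 14.7 to 15.6 CPM in floating control libraries. MUC1 (28.2 to 29.8 CPM) and ITGB2-AS1 (18.5 to 20.1 CPM) in attached GFI1-expressing cells also stood above every floating control library. ITGB4, FN1 and ITGA2 stood below. ITGA2 was 0.86 without floating GFI1 replicate 2 and its call was lost under DESeq2, under robust empirical Bayes and when each of the 11 other libraries was left out.

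Growth and death genes on the positive side were CCNG2 (1.15), FOS (0.86), BBC3 (0.77), DUSP6 (0.76), IGFBP3 (0.70), BCL2L11 (0.67), CDKN1B (0.53), ETV4 (0.53), GDF15 (0.52), PCNA (0.36), ETV5 (0.34) and CDC20 (0.28). DUSP6 stood at 23.4 to 26.4 CPM in attached GFI1-expressing cells, above every floating control library (15.6 to 19.3 CPM). Its mean in floating GFI1-expressing cells was 33.9 CPM. CCNG2, FOS and BBC3 in attached GFI1-expressing cells stood below every floating control library. Stress, immune and metabolic genes were IFITM1 (1.31), ALDH3A1 (0.86), DNAJB9 (0.70), NQO1 (0.57), RPL22L1 (0.55), HMOX1 (0.52), PTGS2 (0.48), ULK1 (0.48), CXCL8 (0.41), CTSL (0.39), TXNRD1 (0.33), GCLM (0.31), UQCRC2 (0.29), VLDLR (0.28), SQSTM1 (0.27) and RPL15 (0.25). IFITM1 stood at 47.0 to 49.0 CPM in attached GFI1-expressing cells, against 6.57 to 7.76 CPM in floating control libraries.

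Negative differences were largest for NPTX1 (-3.80), PEAR1 (-2.30), CPA4 (-2.17), PRICKLE1 (-1.94), DMBX1 (-1.83), RFTN1 (-1.83), SLCO4A1 (-1.79), EFEMP1 (-1.57) and ADM (-1.28). CPA4, a carboxypeptidase, went from 5.48, 4.94 and 5.68 CPM attached to 0.533, 0.482 and 0.113 CPM floating in control cells, and DMBX1 went from 9.71, 12.1 and 11.99 CPM attached to 7.94, 7.28 and 9.23 CPM floating and rose in GFI1-expressing cells (1.37). The control call of DMBX1 was lost without attached replicates 2 (-0.41) or 3 (-0.42) or floating replicate 2 (-0.39). RFTN1, of lipid rafts, went from 8.22, 8.09 and 9.18 CPM attached to 3.14, 2.41 and 2.27 CPM floating. Matrix and cytoskeletal genes were FBN2 (-0.97), COL5A1 (-0.95), VIM (-0.93), COL12A1 (-0.87), UPK3B (-0.85), MMP24 (-0.78), KRT80 (-0.61), AMOTL2 (-0.58), ACTN1 (-0.46), VCL (-0.44), FLNA (-0.41), KRT8 (-0.38) and ACTB (-0.30). Signaling and cell cycle genes were NRG1 (-0.92), IL11 (-0.92), JUN (-0.79), E2F1 (-0.44), EGFR (-0.36), CCND3 (-0.35), HIF1A (-0.30) and VHL (-0.21). Metabolic and chaperone genes were SLC7A5 (-0.66), SCD (-0.61), PFKP (-0.40), DNAJB1 (-0.33), AARS1 (-0.33), HSPB1 (-0.30), LDHA (-0.29), FASN (-0.29) and MARS1 (-0.25). Without floating GFI1 replicate 2, JUN was -0.41, EGFR -0.23 and LDHA -0.16, the last no longer called. Leaving out 1 library ended the call of ITGB1, VHL, VLDLR, LIMA1, RPL15, GDF15 and LDHA in several cases each. Under robust empirical Bayes the differences of ANGPTL4, CA9, CITED2, EGFR, FOS, GDF15, IL11, ITGA2, ITGB4, JUN and LDHA were no longer called, and under DESeq2 those of GDF15, ITGA2, JUN, LDHA and VHL. The VHL difference was also lost under each other scaling, and those of ITGB1, LIMA1 and VLDLR without the low-count filter.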

How the results depend on the processing

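Across the alternatives, the control change of named genes gave 4222 values, of which 4145 kept direction and side of the threshold, 38 lost the call, 12 gained it and 27 changed sign, and the difference gave 1795, with 1706 kept and 89 calls lost. No difference between genotypes could be given from the control libraries alone. Adding a log2 fold change of at least 1 left 660 genes higher, 249 lower and 241 with a difference. DESeq2 called 3212 higher and 3213 lower, and library size only gave 3750 and 3341. Replicate numbers did not pair the samples (correlations of deviations 0.0002, -0.0162 and 0.0075), and a replicate block gave 3460 higher, 3650 lower and 1904 with a difference, with 98.1% of calls kept. Among named genes the block ended the call of the ITGB1 difference (0.17).

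With at least 10 counts in every library, list medians became -0.115 for the EGFR family, 0.118 for the BCL2 family, 0.887 for FOXO and starvation genes, -0.476 for epithelial markers and 0.361 for markers of other cell types, since fewer genes were tested. From control libraries alone the last was 1.199. Leaving out single libraries, medians ran from -0.0641 to 0.0558 for EGFR family, 0.304 to 0.611 for metallothioneins, 0.593 to 0.986 for markers of other cell types, -0.172 to -0.0305 for mitochondrially encoded mRNAs, 0.221 to 0.433 for clustered histones, 0.892 to 0.958 for FOXO and starvation genes, 0.21 to 0.259 for autophagy and lysosome, -0.378 to 0.033 for A549 epithelial markers, -0.157 to -0.0871 for HIF regulators and 0.0715 to 0.24 for interferon response. Genes near 0 changed sign, with log2 fold changes from -0.0415 to 0.0234 for GCLM, -0.0639 to 0.0568 for HMOX1, -0.055 to 0.0025 for ATF4, -0.13 to 0.27 for ASNS, -0.0092 to 0.0341 for LAMP1, -0.02003 to 0.0434 for PCNA, -0.0106 to 0.106 for SESN2, -0.0418 to 0.022 for ZEB1, -0.0168 to 0.0776 for ARNT and -0.0193 to 0.284 for IFIT1 when single libraries were left out. Without leaving any out, ZEB1 was 0.0024, 0.0024, 0.0153, 0.0161 and 0.0083, GCLM was 0.0031 and 0.0041 and HMOX1 was 0.0025 and 0.0034 under DESeq2 or other scalings or filters. The cause of these moves was not tested. At this depth, genes at or under 3 counts per library are not resolved.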

Other observations

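Long noncoding RNA genes were called higher in 248 and lower in 155 of 2584 cases. Both shares are below the 19.6% and 20.5% of all genes tested. SSTR5-AS1, antisense to a somatostatin receptor gene, went from 0.476, 0.869 and 0.689 CPM attached to 6.34, 6.02 and 5.33 CPM floating, and MIR210HG, the host gene of the hypoxia-induced microRNA miR-210, from 3.28, 2.77 and 3.73 CPM attached to 19.1, 15.95 and 17.7 CPM floating (2.43 ± 0.14). LINC02889 went from 1.25, 1.303 and 1.32 CPM attached to 7.76, 7.404 and 6.68 CPM floating, SOX21-AS1 from 7.56, 8.09 and 9.35 CPM attached to 22.6, 23.6 and 25.4 CPM floating and ITGB2-AS1 from 2.799, 2.99 and 2.47 CPM attached to 6.52, 8.13 and 9.35 CPM floating. On the other side, LINC00842 fell from 18.2, 20.7 and 21.2 CPM attached to 6.05, 5.899 and 6.63 CPM floating (-1.69 ± 0.11) and LINC00707 from 11.6, 11.6 and 10.8 CPM attached to 4.39, 4.09 and 4.08 CPM floating (-1.43 ± 0.14), and KIAA2012-AS1 fell from 3.097, 3.42 and 4.07 CPM attached to 1.304, 1.02 and 1.19 CPM floating (-1.58 ± 0.27). ENSG00000273760 fell by 2.06 and ENSG00000276850 by 1.88 on the log2 scale. Reads of an antisense gene and its partner may not be told apart, since strand handling is not stated.

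Of 70 clustered histone genes 26 were tested in this poly-A-selected RNA, 10 were called higher and 1 lower, with a median of 0.29, while replication genes were lower. H4C8 went from 3.04, 1.74 and 2.87 CPM attached to 20.6, 17.8 and 13.03 CPM floating (2.76 ± 0.34), and H2AC20 fell from 1.85, 1.96 and 1.43 CPM attached to 0.474, 0.722 and 0.397 CPM floating (-1.71 ± 0.36). Most messages of replication-dependent histones lack a poly-A tail, and many of these genes are near-identical copies, so their counts are uncertain.

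Metallothioneins, which bind zinc and copper, were mostly too low to test. Of 9 genes 3 were tested, and MT1X went from 7.56, 7.93 and 8.15 CPM attached to 28.5, 26.7 and 27.2 CPM floating (1.80 ± 0.34). MT2A was at 257, 186 and 240.2 CPM in the attached libraries and 287, 294 and 232 CPM in the floating libraries and was not called (0.25 ± 0.12). It was called without the low-count filter and from control libraries alone. The call was also gained without floating GFI1 replicate 2, floating GFI1 replicate 3 or floating control replicate 3 (0.35 for the last). Other genes of the highest and lowest 15 lay outside the lists. STC1, a secreted glycoprotein of calcium balance, went from 14.2, 12.9 and 11.6 CPM attached to 137, 132 and 121 CPM floating, CEMIP, a hyaluronan-binding protein, from 5.895, 7.77 and 7.46 CPM attached to 64.1, 57.7 and 55.6 CPM floating, IGFBP1 from 10.6, 10.3 and 9.47 CPM attached to 69.4, 66.8 and 69.1 CPM floating and TPPP3 from 3.39, 2.77 and 3.16 CPM attached to 22.5, 20.9 and 22.9 CPM floating. PEAR1 fell from 6.49, 5.49 and 5.68 CPM attached to 0.652, 0.361 and 0.906 CPM floating, the annexin ANXA3 from 64.9, 57.4 and 63.7 CPM attached to 10.5, 8.85 and 9.74 CPM floating, the keratin KRT80 from 229, 233 and 228 CPM attached to 51.7, 52.7 and 49.2 CPM floating, the metalloprotease MMP24 from 100.4, 96.1 and 105 CPM attached to 21.04, 22.6 and 22.8 CPM floating and the uroplakin UPK3B from 51.8, 42.03 and 46.3 CPM attached to 12.8, 11.6 and 13.03 CPM floating. C1orf116 fell from 10.6, 9.94 and 10.7 CPM attached to 2.02, 2.77 and 3.23 CPM floating and PRICKLE1, of planar cell polarity, from 5.598, 5.97 and 5.11 CPM attached to 1.42, 1.44 and 1.59 CPM floating.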
